A study of Rattus norvegicus with 18 samples.

Results

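Liver levels of 4 microRNAs (miRNAs) linked to insulin action, rno-miR-103-3p, rno-miR-107-3p, rno-miR-26a-5p and rno-miR-29a-3p (written below without the rat prefix rno), were described in lean and obese rats. They were taken by name from a table of 401 mature miRNAs, and all 4 were present and had enough counts to be tested. Small RNA was sequenced in 18 liver libraries, 6 in each of 3 groups, at 8 weeks of age. The lean group carries a lean phenotype label and names no agent. The other groups are obese rats of the Zucker diabetic fatty (ZDF) strain, one with the agent label vehicle and the other with colesevelam, a gut-retained resin that traps bile acids. Every label, that of lean rats included, gives the strain as ZDF-Leprfa/Crl, whose fa allele disables the leptin receptor, so the lean group is known only by its name and phenotype. The sources used here give no dose, route or length of treatment. The labels do not tie libraries to animals, and 5 pairs of libraries within a group share a number in their description, whose meaning is not stated. The p-values therefore measure the spread between libraries, part of which may be technical.

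A miRNA is a short RNA that guides Argonaute proteins to messenger RNAs, mainly by pairing through its seed, bases 2 to 8 from the 5′ end, and lowers their output. miR-103 and miR-107 are known to act against insulin signalling in liver and fat, where caveolin-1, a partner of the insulin receptor, is a described target. miR-26a is abundant in liver and has been described as a brake on hepatic glucose and fatty acid synthesis. miR-29a has been linked to insulin resistance through the insulin-signalling kinase AKT pathway and is also known to repress collagen genes.

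The mature sequences are shown because the family members counted next to each other differ by very few bases. They are RefSeq's, in the GRCr8 build, and each equals the sequence in the deposited table with U for T. Capitals mark the seed.
miR-103-3p: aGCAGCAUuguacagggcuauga
miR-107-3p: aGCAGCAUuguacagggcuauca
miR-26a-5p: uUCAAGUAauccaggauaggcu
miR-26b-5p: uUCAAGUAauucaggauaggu
miR-29a-3p: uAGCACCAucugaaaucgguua
miR-29c-3p: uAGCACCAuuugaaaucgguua
miR-29b-3p: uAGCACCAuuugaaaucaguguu
miR-16-5p: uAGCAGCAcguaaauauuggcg
Counting from 1 at the 5′ end, miR-103-3p and miR-107-3p differ only by G22C, near the 3′ end. miR-29a-3p and miR-29c-3p differ only by C10U, and miR-26a-5p and miR-26b-5p by C11U, C21U and the length, 22 against 21 bases. The 4 miRNAs carry 3 seeds. GCAGCAU is shared by miR-103-3p and miR-107-3p alone among the 401 rows, UCAAGUA by miR-26a-5p and miR-26b-5p, and AGCACCA by miR-29a-3p, miR-29b-3p and miR-29c-3p. The seed of miR-16-5p, AGCAGCA, stands in miR-103-3p and miR-107-3p from base 1 rather than base 2, which is why the miR-15 and miR-16 miRNAs are grouped with them.

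In GRCr8 the gene Mir107 lies within Pank1, with mature miR-107-3p at chr1:241750431-241750453 on the minus strand. Mir103a2 lies within Pank2, with miR-103-3p at chr3:138963278-138963300 on the plus strand, and the other copy, Mir103a1, lies within Pank3. The Pank genes encode pantothenate kinases, which start coenzyme A synthesis. miR-26a-5p lies at chr8:127633063-127633084 on the plus strand, within Ctdspl, and Mir26b within Ctdsp1, both genes for small phosphatases of the RNA polymerase II tail. miR-29a-3p lies at chr4:60617968-60617989 on the minus strand, separated by 352 bases from a copy of miR-29b-3p.

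The libraries held 110352 to 881452 miRNA counts in the lean group, 37910 to 147313 in the vehicle group and 32936 to 122881 in the colesevelam group, so the lean libraries were the deeper ones. Levels are given as CPM, counts scaled to a common library total after TMM (edgeR's trimmed mean of M-values), so each is a share of a library's miRNA. A count of 0 would have allowed 3.94 to 26.0 CPM in lean, 19.6 to 74.8 in vehicle and 30.1 to 84.7 in colesevelam libraries, counting error only. In bulk liver, fewer cells of a type and less miRNA per cell cannot be told apart. Hepatocyte markers, miR-122 and miR-192 among them, held 32.5% to 45.6% of counts in lean, 22.8% to 34.9% in vehicle and 27.4% to 40.3% with colesevelam, and all 5 were tested. Leukocyte markers held 0.166% to 0.324% in the lean group, 0.0940% to 0.182% in the vehicle group and 0.0771% to 0.124% in the colesevelam group. Biliary and other epithelial markers held 0.0397% to 0.0630%, 0.00762% to 0.0253% and 0.0147% to 0.0243%, and neuronal and islet markers 0.0339% to 0.171%, 0.0199% to 0.112% and 0.0425% to 0.0815% in the same order. Across all libraries the shares were 3.22% to 5.24% for stromal markers, 0.406% to 1.22% for endothelial, 0.00489% to 0.0461% for erythroid and 0% to 0.00279% for muscle markers. By edgeR 1 of 2 tested leukocyte and 1 of 1 tested epithelial markers were lower in vehicle than in lean libraries, beside 6.25% of all tested miRNAs called in either direction. In the same test 1 of 2 leukocyte markers was lower in colesevelam than in vehicle, beside 10.7% of all tested called. Further, 2 of 2 leukocyte, 1 of 5 hepatocyte, 1 of 1 epithelial and 1 of 1 neuronal and islet markers were lower in colesevelam than in lean, beside 21.4% of all tested called. No stromal, endothelial or erythroid marker was called, and no muscle marker could be tested. Every matched marker row had a count in at least 1 library. The part of these shifts in the values below was not tested.

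The 4 miRNAs together held 5.34 ± 0.73% of counts in lean, 5.75 ± 0.50% with vehicle and 6.06 ± 0.86% with colesevelam (mean ± SD, n = 6 each). miR-26a-5p made up nearly all of that and ranked 4 to 8 of 401 rows in every library. miR-29a-3p ranked 28 to 41, miR-103-3p 40 to 56 and miR-107-3p 62 to 82. All are 22 or 23 bases long, and the part in these ranks of length, or of how well each sequence is captured, was not tested.

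miR-103-3p lay between 672 and 1161 CPM in lean libraries (median 1032), between 976 and 1845 in vehicle (median 1244) and between 1042 and 1873 in colesevelam (median 1459). The order of the means was lean, vehicle, colesevelam, at 1002 ± 179, 1329 ± 324 and 1454 ± 294 CPM (SD, n = 6). Lean 6 was the lowest library of all, 4 of 6 vehicle libraries and 5 of 6 colesevelam libraries lay above the highest lean one, and the groups still overlapped. It rested on 47.3 to 744.3 deposited counts per library.

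miR-107-3p, with the same seed, was the rarest of the 4. It lay between 286 and 457 CPM in lean (median 347), between 374 and 590 in vehicle (median 399) and between 265 and 508 in colesevelam (median 391). Its means, 363 ± 58.4, 436 ± 83.7 and 384 ± 112 CPM, put lean lowest and vehicle highest, with all 3 ranges overlapping. In the colesevelam group 3 libraries lay above and 2 below every lean library. The shallowest value was 14 counts in colesevelam 6, where counting error alone is 26.7% of the value.

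miR-26a-5p lay between 36742 and 64038 CPM in lean (median 48565), between 45028 and 58128 in vehicle (median 50880) and between 48157 and 67175 in colesevelam (median 59122). The lean and vehicle means, 50345 ± 9448 and 51062 ± 5264 CPM, were less than 1 SD apart. The colesevelam mean was 58478 ± 6839 CPM, and 3 of 6 colesevelam libraries lay above every vehicle library. With 1904 counts or more in each library its counting error was at most 2.29%.

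miR-29a-3p lay between 1877 and 3078 CPM in lean (median 2048), between 2319 and 3107 in vehicle (median 2688) and between 2034 and 3471 in colesevelam (median 2758). Lean 6, the lowest library for miR-103-3p and miR-26a-5p, was the highest lean library here. All 6 vehicle libraries lay above the lean median, yet only 1 above the highest lean library. The means were 2259 ± 475 CPM in lean, 2719 ± 324 in vehicle and 2685 ± 523 in colesevelam, so the obese groups differed by far less than either SD.

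**Figure D1:**
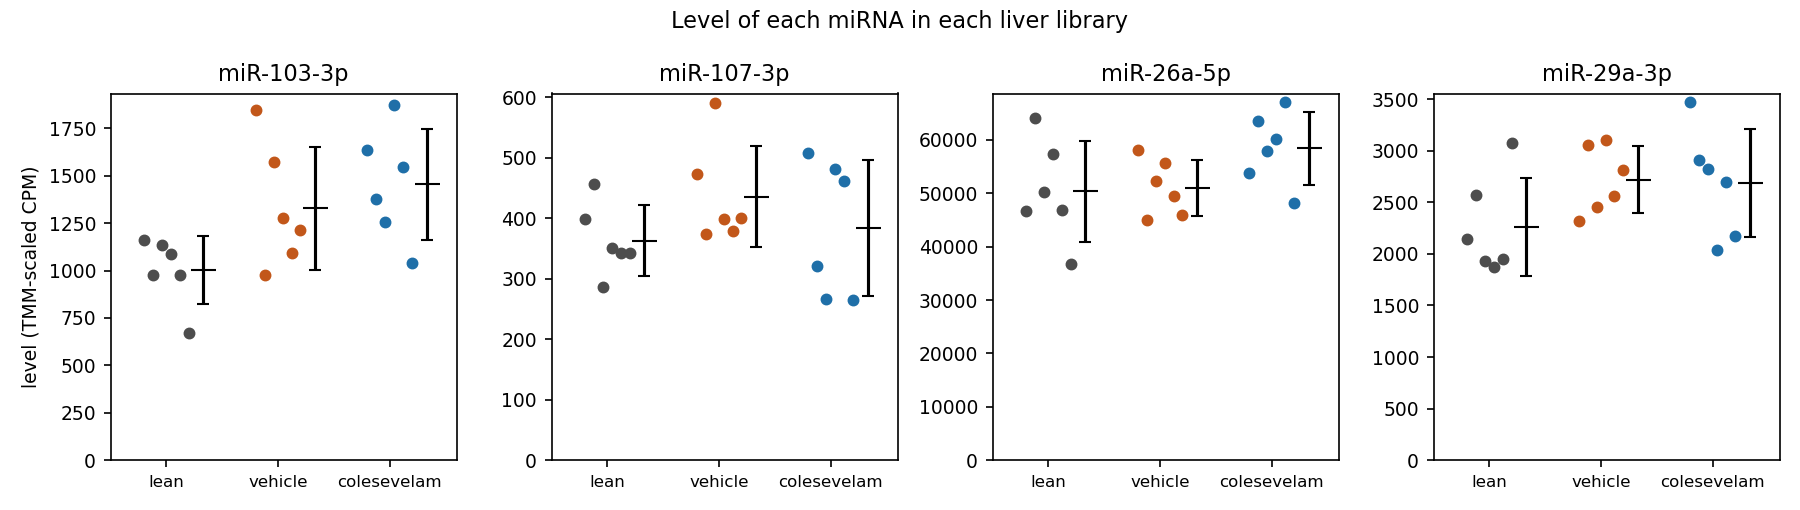
Level of miR-103-3p, miR-107-3p, miR-26a-5p and miR-29a-3p in each library (y axis, TMM-scaled CPM, from 0), by group (x axis, 6 points each in replicate order, with mean and SD at the right). The groups overlap in every panel, and miR-103-3p shows the widest step relative to its level, from a lean mean of 1002 to a colesevelam mean of 1454 CPM.

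The comparison of vehicle with lean addresses obesity without the resin. None of the 4 passed a threshold of 0.05 in edgeR (quasi-likelihood F test, p-values adjusted over all tested miRNAs by Benjamini-Hochberg, BH), beside 6.25% of the 112 tested miRNAs called. All 4 log2 fold changes were above 0 with TMM, though that of miR-26a-5p was below 0 with DESeq2's size factors and all 4 were with the authors' scaling, and their median was 0.26 beside 0.01 over all tested. At an unadjusted p under 0.05 the count was 0 of 4, beside 18.8% of all tested, and DESeq2 also called 0. In none of the 4 did the groups separate, beside 2.68% of all tested. miR-103-3p was at 0.40 ± 0.20 (log2 ± SE; edgeR adjusted p = 0.302), with a 95% interval from −0.02 to 0.83, or from 0.985-fold to 1.77-fold. miR-29a-3p was at 0.27 ± 0.17 (edgeR adjusted p = 0.437), and its interval reached 1.54-fold. miR-107-3p was at 0.25 ± 0.23 (edgeR adjusted p = 0.650) with an upper bound of 1.65-fold. For miR-26a-5p the value was 0.02 ± 0.16 (edgeR adjusted p = 0.989), and the interval ran from 0.804-fold to 1.28-fold, the narrowest of the 4.

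The comparison of colesevelam with vehicle addresses the resin among obese rats. None of the 4 passed, beside 10.7% of the tested miRNAs called. At an unadjusted p under 0.05 the count was again 0 of 4, beside 21.4% of all tested, and DESeq2 called 0. None separated, beside 5.36% of all tested. With TMM 2 of 4 were above 0 and with the authors' scaling 0 of 4, and the TMM median was 0.06 beside −0.01 over all tested. miR-26a-5p was at 0.20 ± 0.16 (edgeR adjusted p = 0.567), with an interval from 0.908-fold to 1.44-fold. miR-103-3p was at 0.13 ± 0.21 (edgeR adjusted p = 0.781) and its seed partner miR-107-3p at −0.19 ± 0.24 (edgeR adjusted p = 0.745). miR-29a-3p was at −0.02 ± 0.17 (edgeR adjusted p = 0.981), between 0.769-fold and 1.27-fold.

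The comparison of colesevelam with lean addresses treated obesity. None of the 4 passed in edgeR, beside 21.4% of the tested miRNAs called, and none separated, beside 8.04%. At an unadjusted p under 0.05 there was 1 of 4, miR-103-3p, beside 39.3% of all tested. All 4 values were above 0 with TMM and below 0 with the authors' scaling, and the TMM median was 0.23 beside −0.08 over all tested. miR-103-3p was 1.45-fold higher, at 0.53 ± 0.20 (unadjusted p = 0.0159, edgeR adjusted p = 0.0634), with an interval from 1.08-fold to 1.94-fold. DESeq2 called it (0.49, DESeq2 adjusted p = 0.0188). So did edgeR in 1 of 12 fits that left out a library, the one without colesevelam 6 (0.64, edgeR adjusted p = 0.0188). Across those 12 fits its edgeR adjusted p ran from 0.0188 to 0.105, and 17 to 32 of all tested miRNAs were called. In 8 of 10 other settings miR-103-3p kept its sign and was not called, with an edgeR adjusted p of up to 0.321. The value of miR-103-3p thus lies near the threshold and depends on the setting. With libraries that share a description number summed it was 0.53 (edgeR adjusted p = 0.177). miR-29a-3p was at 0.25 ± 0.17 (edgeR adjusted p = 0.322), miR-26a-5p at 0.22 ± 0.16 (edgeR adjusted p = 0.351) and miR-107-3p at 0.06 ± 0.23 (edgeR adjusted p = 0.874). The comparisons share groups of libraries, so they are not independent of each other.

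**Figure D2:**
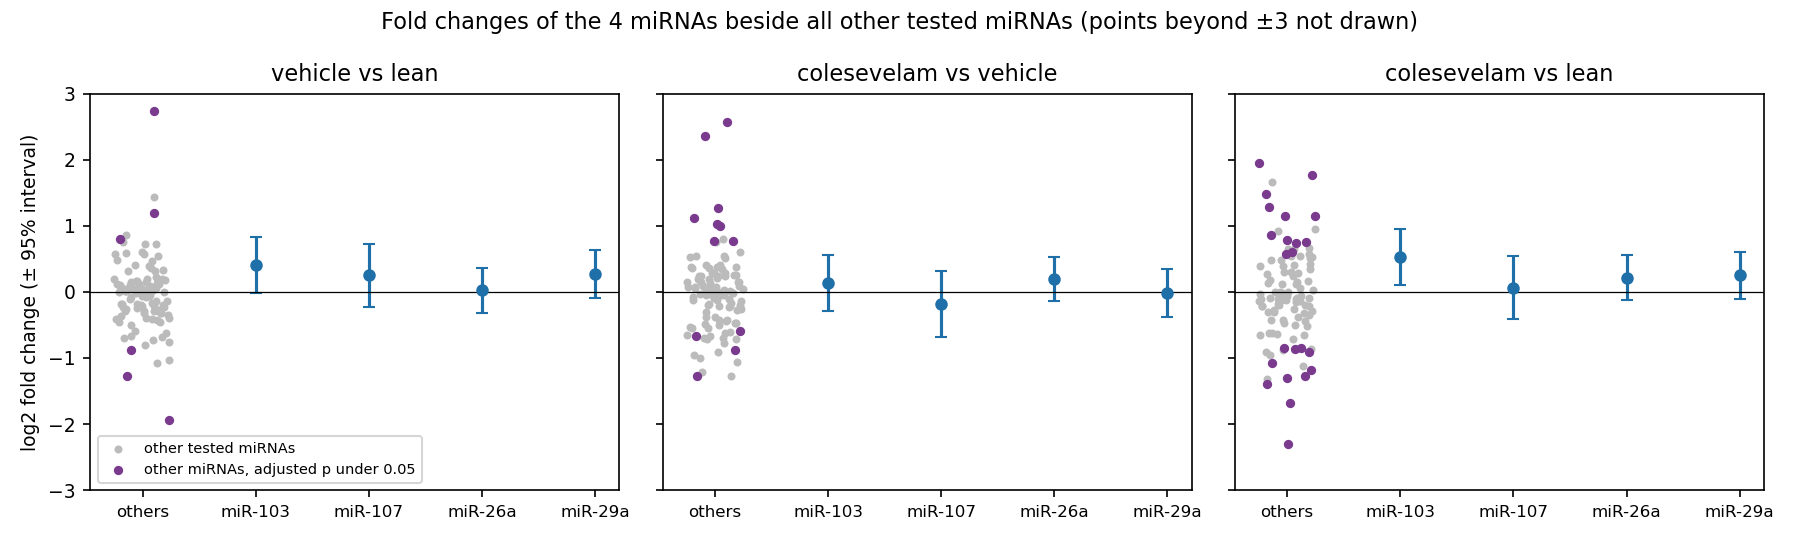
Log2 fold change (y axis) of the 4 miRNAs with 95% intervals (blue) beside the other 108 tested miRNAs (grey, or purple where edgeR's adjusted p was under 0.05), in the 3 comparisons; 2 points beyond ±3 are not drawn. Among the blue intervals only that of miR-103-3p for colesevelam against lean lies wholly above 0.

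The authors' deposited table gives other values, because its scaling does not follow the miRNA total. In the authors' deposited table the log2 fold changes of vehicle against lean were −2.02 for miR-103-3p, −2.24 for miR-107-3p, −2.47 for miR-26a-5p and −2.09 for miR-29a-3p, where the median of all rows was −2.41. All 4 were lower with an adjusted p under 0.05 there, as were 97.8% of the rows with an adjusted p. Relative to that median the values in the authors' deposited table become 0.39, 0.17, −0.05 and 0.32. For colesevelam against lean the authors' deposited table has −2.20, −2.76, −2.60 and −2.48 in the same order, with a median of −2.87, and 98.3% of rows were lower with an adjusted p under 0.05. That is 0.68, 0.11, 0.27 and 0.39 relative to the median of the authors' deposited table. For colesevelam against vehicle none of the 4 passed in either direction in the authors' deposited table. There 4.72% of rows were lower with an adjusted p under 0.05, a share that leaves out rows that were higher. Relative to the median of −0.36 in that table, the 4 lay at 0.18, −0.16, 0.22 and −0.03.

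The spread between libraries of a group was small for these miRNAs. miR-26a-5p had the lowest within-group SD of all 112 tested miRNAs, 0.21 on the log2 CPM scale, beside a median of 0.51 over all tested and 0.39 over the 10 most abundant. miR-29a-3p ranked 3 from the lowest (0.25), miR-103-3p 14 (0.31) and miR-107-3p 17 (0.32). Among the 21 tested miRNAs around each in abundance the median SD was 0.38 for miR-29a-3p, 0.50 for miR-103-3p and 0.55 for miR-107-3p. This is a description, since abundance and counting error enter the SD.

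**Figure D3:**
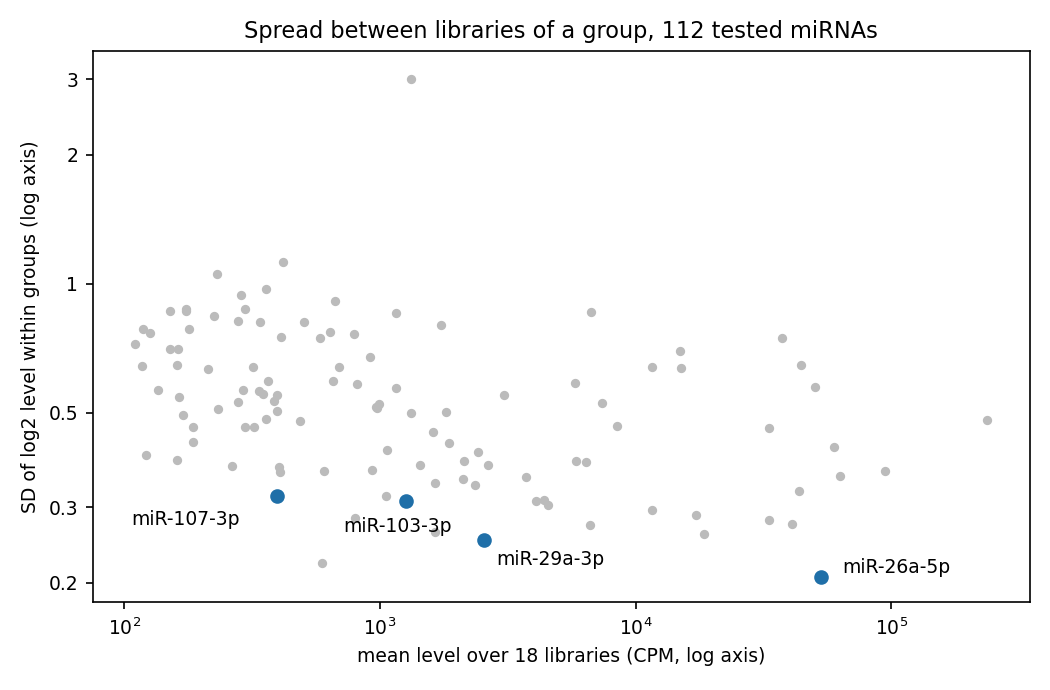
SD of the log2 level within groups (y axis, log scale) against mean level (x axis, CPM, log scale) for the 112 tested miRNAs; each point is a miRNA over 18 libraries, and the 4 miRNAs are blue. miR-26a-5p is the lowest point, at 0.21, and the other 3 lie along the lower edge at their abundance.

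Because the partners are near-identical, how the table splits them matters. Deposited counts of miR-103-3p were not whole in 10 of 18 libraries, and in the same 10 neither were those of miR-107-3p, while the sum of the pair was whole (within 0.05) in all 18. The same held in 5 libraries for miR-26a-5p with miR-26b-5p and in 2 for miR-29a-3p with miR-29c-3p. The sources used here do not say how reads that match more than 1 miRNA were divided, and the part of that division in the levels of each partner was not tested. With the pair summed to 1 row before the fit, miR-103-3p and miR-107-3p together were at 0.33 (vehicle to lean), 0.06 (colesevelam to vehicle) and 0.38 (colesevelam to lean), and were not called.

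Ratios within a library do not depend on the scaling between libraries. There were 1.97 to 3.97 counts of miR-103-3p per count of miR-107-3p in lean libraries, 2.67 to 3.89 in vehicle and 3.15 to 4.78 in colesevelam. The ratio was 1.26-fold higher in colesevelam than in vehicle (difference of mean log2 ratios 0.34, exact two-sided permutation p = 0.0195, BH-adjusted p = 0.0844 over 9 tests) and 1.39-fold higher than in lean (0.47, exact p = 0.0216, adjusted p = 0.0844). Neither passed after adjustment. The difference from lean passed in 1 of 12 tests that left out a library, the one without lean 3 (0.58, exact permutation adjusted p = 0.0390). Across those 12 its exact permutation adjusted p reached 0.195. For the difference from vehicle it ran from 0.0779 to 0.169. In other settings both reached 0.281, with the replicate block. There the signs of differences between same-numbered libraries were flipped, which allows few distinct p-values. Such a test can hardly pass after adjustment over 9 tests, so it decides little here. Vehicle and lean differed by 0.14 (exact permutation p = 0.457, adjusted p = 0.514).

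Counts of miR-26a-5p were 8.28 to 12.6 times those of miR-26b-5p in lean, 7.82 to 15.7 in vehicle and 10.2 to 17.7 in colesevelam libraries. The log2 ratio was 0.35 higher in colesevelam than in lean (exact permutation p = 0.0281, adjusted p = 0.0844). It passed in 1 of 12 tests that left out a library, the one without colesevelam 3 (0.45, adjusted p = 0.0195, exact permutation). Across those 12 the exact permutation adjusted p reached 0.195, and in other settings 0.281, again with the replicate block and its few distinct p-values. This log2 ratio differed by 0.31 between colesevelam and vehicle (exact permutation p = 0.130, adjusted p = 0.234) and by 0.04 between vehicle and lean (exact permutation p = 0.792). Counts of miR-29a-3p were 6.23 to 11.7 times those of miR-29c-3p in lean, 7.74 to 14.2 in vehicle and 6.35 to 15.4 in colesevelam. The log2 difference was 0.46 for colesevelam against lean (exact permutation p = 0.0931, adjusted p = 0.209), 0.28 against vehicle (exact p = 0.240) and 0.18 for vehicle against lean (exact permutation p = 0.398). All 3 ratios thus had their highest mean in the colesevelam group, without passing the adjusted threshold. For miR-29a-3p to miR-29c-3p, both miRNAs reached 10 counts in 15 of 18 libraries. Colesevelam 1, 4 and 6 held only 8, 5 and 8 counts of miR-29c-3p. Their ratios, 15.4, 15.2 and 14.4, were the highest of all, so this colesevelam mean rests largely on counts below that minimum. The smallest p that 6 against 6 libraries allow is 0.00216.

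**Figure D4:**
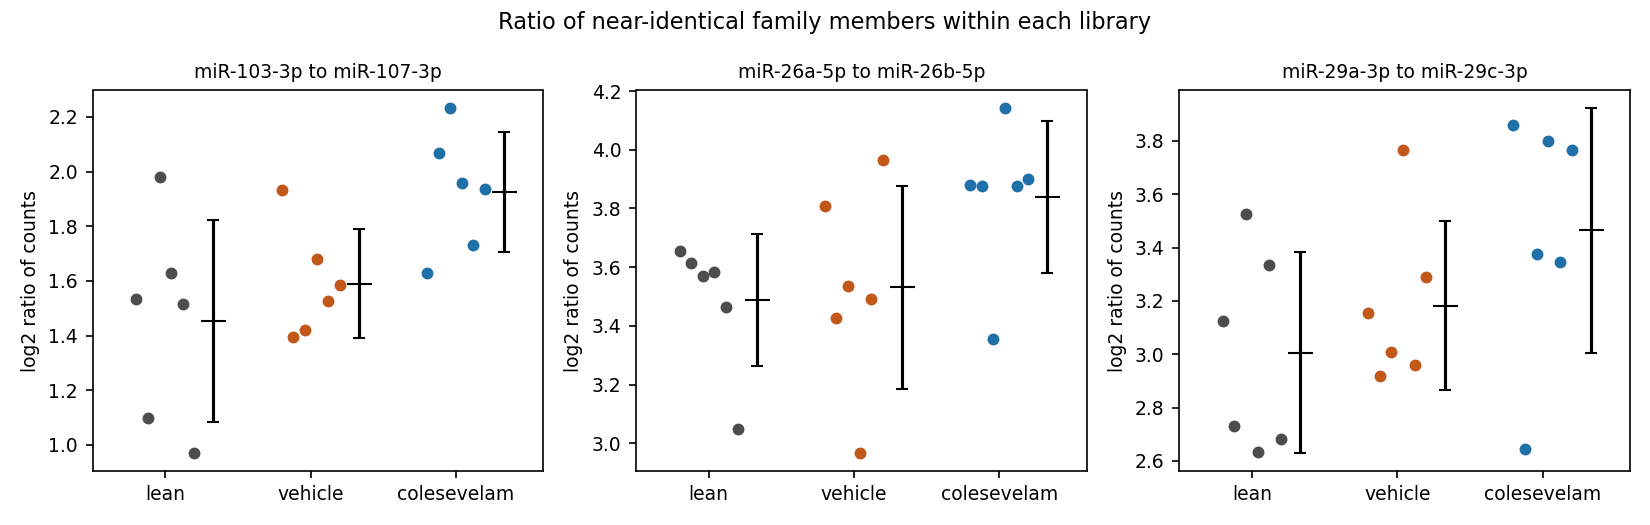
Log2 ratio of counts of 2 near-identical miRNAs in each library (y axis), by group (x axis, 6 points in replicate order, mean and SD at the right). The mean of each ratio is highest in the colesevelam group, with overlap. For miR-29a-3p to miR-29c-3p, colesevelam 1, 4 and 6 rest on 8, 5 and 8 counts of miR-29c-3p. Lean 6 and colesevelam 3 lie apart from their groups for miR-26a-5p to miR-26b-5p.

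The partners themselves were not called either. miR-26b-5p, with the seed of miR-26a-5p, had means of 4440 ± 522 CPM in lean, 4540 ± 1382 in vehicle and 4135 ± 914 in colesevelam (n = 6), and its log2 fold changes were 0.03 (vehicle to lean), −0.13 (colesevelam to vehicle) and −0.10 (colesevelam to lean). miR-29c-3p held 294 ± 120, 295 ± 61.5 and 250 ± 118 CPM in the same order, with values of 0.00, −0.22 and −0.22. miR-29b-3p, which neighbours miR-29a in the genome, was too low to test, with 51 counts in all lean libraries together, 17 in all vehicle and 16 in all colesevelam ones. The other arm of the precursor, miR-29a-5p, was seen in 5 of 6 lean libraries with at most 3 counts and in no obese library. Its lean levels reached at most 19.0 CPM, below what a count of 0 allows in any obese library. The 5′ arms of miR-103 and miR-107 and the 3′ arm of miR-26a were not analysed here.

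In the group of miR-15, miR-16 and miR-107 relatives, 7 of 9 named miRNAs were tested and none passed in any comparison by edgeR. miR-16-5p, the most abundant of them and known for restraining the cell cycle, had means of 4076 ± 900 CPM in lean, 3331 ± 642 with vehicle and 3778 ± 1063 with colesevelam. For vehicle against lean miR-103-3p and miR-107-3p were, with TMM, the 2 members above 0, and the lowest was miR-322-5p at −0.72 ± 0.30 (edgeR adjusted p = 0.216). For colesevelam against lean miR-15b-5p lay lowest at −0.63 ± 0.29 (edgeR adjusted p = 0.106), and miR-195-5p was at 0.51 ± 0.34 (edgeR adjusted p = 0.298). miR-497-5p lay between −0.18 and 0.02 in the 3 comparisons. The group's median log2 fold change was −0.18 (vehicle to lean), 0.13 (colesevelam to vehicle) and −0.11 (colesevelam to lean), beside 0.01, −0.01 and −0.08 over all tested.

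A wider list of 18 miRNAs linked to insulin and glucose handling had 14 tested members, these 4 among them. None was called for vehicle against lean, where the largest value was that of miR-375-3p, the islet miRNA that restrains insulin secretion, at −1.07 ± 0.37 (edgeR adjusted p = 0.110). miR-181b-5p was at 0.32 and miR-27b-3p at −0.32 in that comparison. For colesevelam against vehicle 1 of 14 fell, miR-30d-5p, at −0.59 ± 0.18 (edgeR adjusted p = 0.0340), from 21608 ± 3506 to 14350 ± 2075 CPM. Of all tested miRNAs 10.7% were called in this comparison. The call of miR-30d-5p held in 1 of 12 fits that left out a library, the one without vehicle 5, and in 5 of 10 other settings. It was lost with upper-quartile factors, with the authors' size factors, without the filter and with libraries that share a description number summed (edgeR adjusted p = 0.0629 in the last). miR-181b-5p was at −0.38, miR-130a-3p at 0.28 and miR-29c-3p at −0.22 there. For colesevelam against lean 1 of 14 fell, miR-375-3p, at −1.07 ± 0.37 (edgeR adjusted p = 0.0433), from 1214 ± 465 to 580 ± 208 CPM, beside 21.4% of all tested called. The call of miR-375-3p held in 3 of 12 fits that left out a library, those without lean 6 or colesevelam 4 or 6, and in 7 of 10 other settings. Among these 7 were the authors' size factors, with which nearly all tested miRNAs were called against lean, so that setting cannot decide this call. The call was lost with upper-quartile factors and with libraries that share a description number summed (edgeR adjusted p = 0.176 in the last). miR-30d-5p was at −0.47 and miR-130a-3p at 0.43 in that comparison, neither called. The list's median was 0.06, −0.07 and −0.08 in the 3 comparisons in the same order.

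**Figure D5:**
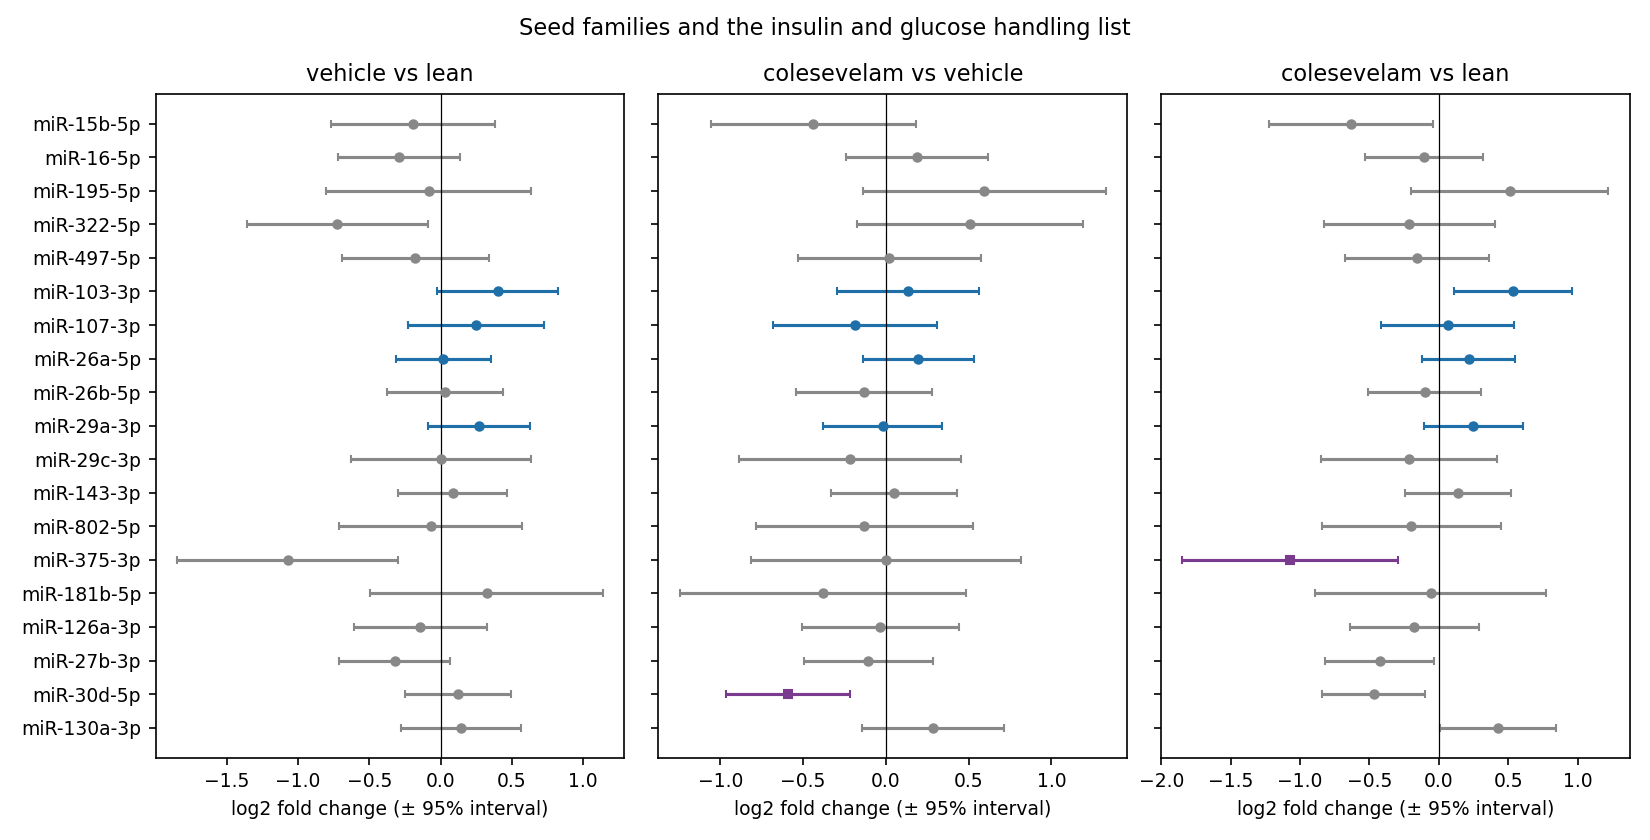
Log2 fold change with 95% interval (x axis) of the tested seed family and insulin-list miRNAs (rows) in the 3 comparisons; the 4 miRNAs are blue, and purple squares have an edgeR adjusted p under 0.05. The 2 squares are miR-30d-5p (colesevelam to vehicle) and miR-375-3p (colesevelam to lean).

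Within groups, the levels of the 4 did not move as a block. Correlations of log2 CPM after subtracting group means are given as a description over 18 libraries, whose points share scaling and depth. Pearson's r was 0.62 between miR-103-3p and miR-107-3p, whose partial counts add up to whole ones, and miR-103-3p was the miRNA most like miR-107-3p of all 111 others. By group it was −0.00 in lean, 0.78 with vehicle and 0.91 with colesevelam. miR-103-3p and miR-26a-5p were at 0.61, while miR-29a-3p was at −0.45 with miR-103-3p and −0.24 with miR-26a-5p. In lean, vehicle and colesevelam the r of miR-29a-3p was −0.84, −0.73 and 0.08 with miR-103-3p. With miR-26a-5p it was −0.41, −0.46 and 0.14 in the same order, so neither was negative in the colesevelam group.

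The nearest miRNAs also differed. Those most like miR-103-3p were miR-93-5p (r = 0.74), miR-22-3p (0.71) and miR-378b (0.69), and for miR-107-3p they were, after miR-103-3p, miR-130a-3p (0.62) and miR-425-5p (0.53). For miR-26a-5p they were miR-22-3p (0.88), let-7i-5p (0.63) and miR-103-3p (0.61). miR-29a-3p was most like miR-19b-3p (0.72), miR-30e-5p (0.69) and miR-29c-3p (0.67). The main axis of variation between libraries of a group, which held 37.7% of that variance, had loadings that correlated with GC content across miRNAs (r = 0.59). miR-103-3p and miR-107-3p, both with 47.8% GC, lay at r = 0.48 and 0.12 with that axis. miR-29a-3p and miR-26a-5p, both with 40.9% GC, lay at −0.59 and −0.08. Members of equal GC content differed in their r with the axis, and the part of GC content or counting error in these values was not tested.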

How the data were processed

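Per the labels' protocols, RNA came from flash-frozen liver, and the library kit was an Illumina TruSeq RNA kit. The authors deposited estimated counts of 401 mature miRNAs in 18 libraries, an unscaled estimated count per miRNA and library, and 297 of the 7218 values were not whole. The submitters' processing notes name Bowtie 1.1.2 and DESeq2 1.18.1, and how reads were counted, the build and the annotation are unknown here. The deposited table also has, per the file headers, the authors' mean scaled signal, log2 fold changes and p-values. From the deposited means the authors' size factors were recovered, and they gave back 183 of 183, 126 of 127 and 182 of 182 means in the 3 comparisons (relative tolerance 0.0001).

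Counts were rounded, and filterByExpr (minimum count 10, minimum total 15) kept 112 rows, which held 99.5% of counts. They were TMM-scaled and tested together over 18 libraries with edgeR 4.0.16 (R 4.3.3, robust quasi-likelihood F test, BH over all tested rows, threshold 0.05). The procedure was checked on simulated data. Ratios were of counts + 0.5, on the log2 scale, where both miRNAs had 10 counts in at least 12 libraries, with exact permutation tests (scipy 1.17.1). By that rule miR-29a-3p was not set against miR-29b-3p or its own other arm. No pair of libraries of a group agreed within sampling noise (chi-square per degree of freedom 5.73 or more). In pairs that share a description number, deviations of log2 CPM from group means correlated at −0.75 to −0.10. What that number stands for remains unknown. Intervals of fold changes include the spread between libraries. Alternatives were other scalings, no filter, DESeq2 1.42.0, fits of 2 groups, a replicate block, libraries summed by description number, summed partners, other pseudocounts and each library left out.

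The members, lists and rules were chosen with earlier results of these data known. Named miRNAs were the 4 members, their seed families and other arms, relatives of miR-15 and miR-107, called members of the insulin list and its 4 largest changes per comparison, and the 3 miRNAs most like each member. Marker lists covered hepatocytes, leukocytes, stroma, endothelium, erythroid cells, epithelia, muscle, and neurons and islets. The 2 called members of the insulin list were put through the alternatives after seeing the data.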

Additional observations from a re-analysis of the deposited data

Results flagged for a closer look

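Among 21 sets of 6 libraries (the level of each of the 4 miRNAs and 3 ratios, in each group), 2 held a library far from the other 5 by Dixon's test at the 95% level; chance alone flags about 1 in 20. Both concern the ratio of miR-26a-5p to miR-26b-5p. In lean 6 its log2 was 3.05, while the other lean libraries lay between 3.46 and 3.65, and the gap was 0.684 of the range. In colesevelam 3 it was 3.36, against 3.88 to 4.14 in the other colesevelam libraries, a gap of 0.661 of the range. Without lean 6 the difference of colesevelam from lean was 0.26, and without colesevelam 3 it was 0.45.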

How the results depend on the processing

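Across all settings and libraries left out, 226 of 264 fold changes of the 4 miRNAs kept their direction and side of the threshold. Another 36 changed sign, and 2 kept their sign and gained a call. For the 144 ratio differences these counts were 139, 3 and 2. The 36 include values that also gained a call, among them all 4 miRNAs in both comparisons with lean under the authors' size factors. They also include a value of the summed pair that was counted for miR-107-3p. The authors' size factors moved the median of all tested miRNAs to −2.38 for vehicle to lean, −0.36 for colesevelam to vehicle and −2.76 for colesevelam to lean. With them vehicle to lean gave −2.02 for miR-103-3p, −2.24 for miR-107-3p, −2.47 for miR-26a-5p and −2.09 for miR-29a-3p (4 of 4 and 110 of all called by edgeR), and colesevelam to lean gave −2.20, −2.75, −2.60 and −2.48 (4 of 4 and 109 of all called). Colesevelam to vehicle gave −0.18 for miR-103-3p and −0.13 for miR-26a-5p, with 2 of all called. These sign changes come with the shift of the median. For vehicle to lean, miR-26a-5p at −2.47 also lay below the shifted median of −2.38.

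Values near 0 changed sign. For vehicle to lean miR-26a-5p was at −0.0016 with DESeq2's size factors, −0.0018 in DESeq2, −0.020 without the filter, −0.015 with only these groups in the fit, −0.027 with libraries summed by description number and −0.020 with miR-103-3p and miR-107-3p summed. For colesevelam to vehicle miR-107-3p took the value of the summed pair, 0.056, and miR-29a-3p was at 0.00058 with upper-quartile factors and 0.042 with libraries summed. For colesevelam to lean miR-107-3p was at −0.0063 without the filter and −0.0034 with only these groups. DESeq2 called 1 of 4 there, miR-103-3p (0.49, adjusted p = 0.0188). Of all tested miRNAs 12 were called for colesevelam to vehicle, against 6 with upper-quartile factors and 7 each without the filter, with the replicate block and with libraries summed. The cause was not tested.

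With each library left out in turn, vehicle to lean ran from −0.058 to 0.10 for miR-26a-5p, and colesevelam to vehicle from −0.044 to 0.12 for miR-29a-3p, with 7 (without vehicle 6) to 12 of all called. Colesevelam to lean ran from 0.44 to 0.64 for miR-103-3p and from −0.0056 to 0.18 for miR-107-3p. In that comparison 0 to 1 of 4 were called, beside 17 to 32 of all tested. The ratio differences ran from 0.38 to 0.58 for miR-103-3p to miR-107-3p (colesevelam to lean), from −0.044 to 0.16 for miR-26a-5p to miR-26b-5p (vehicle to lean) and from 0.26 to 0.45 for the same ratio (colesevelam to lean).

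The titles number libraries 1 to 6 in each group, but nothing says that a number pairs them: same-numbered deviations correlated at −0.66 to 0.60, and in 4 of 18 pairs of libraries from different groups with the same number was that number the best match. With the replicate block miR-103-3p was at 0.41 (vehicle to lean) and 0.54 (colesevelam to lean, edgeR adjusted p = 0.0617), no member was called, and 6, 7 and 20 of all tested were called in the 3 comparisons. The block also ended the calls of miR-30d-5p (colesevelam to vehicle, edgeR adjusted p = 0.0909) and miR-375-3p (colesevelam to lean, edgeR adjusted p = 0.113). Depth limits miR-107-3p most, and miR-29b-3p could not be tested.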
